A study of Mus musculus with 12 samples.

Results

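The genes described are the 4 thrombospondins Thbs1, Thbs2, Thbs3 and Thbs4 with Comp, which belongs to the same family, the 4 tenascins Tnc, Tnr, Tnn and Tnxb, and Postn, which encodes periostin. They were taken by name from the deposited gene table, which holds 54232 genes, and all 10 were found there. A filter on low counts left 12897 genes to test, 9 of the 10 among them, and Comp did not pass. RNA was sequenced from 12 tumors grown in athymic nude mice, which lack T cells, from the mouse angiosarcoma cell line SVR (strain label C57BL/6), with 3 tumors in each of 4 groups. The control tumors received vehicle. The second group received trametinib, an inhibitor of the kinase MEK, at 1 mg/kg. The third received cediranib, an inhibitor of the VEGF receptors, at 3 mg/kg, and the combination treated tumors received both drugs at these doses. Mice were 8 to 12 weeks old, tumors were left for 3 to 7 days before daily oral gavage began, and the labels give ulceration or a size over 1 cm as the end of treatment. The study also had an experiment with 1 common harvest time, and which of them these tumors come from is not stated, so time on treatment may differ between tumors. All 4 groups are tumors of 1 cell line, and tumor cells, stroma and skin are all of mouse origin, so their transcripts are counted together.

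Thrombospondins, tenascins and periostin are matricellular proteins, secreted into the extracellular matrix where they bind collagens, growth factors and integrins rather than bear load themselves. Thrombospondins 1 and 2 restrain the growth of blood vessels through the receptors CD36 and CD47, and thrombospondin 1 can also activate latent TGF-beta. Tenascin C and periostin are made by stromal cells in wounds and tumors, tenascin X by loose connective tissue, and tenascin R mostly by the central nervous system.

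Of these genes Tnr, Tnc and Thbs2 passed the test in at least 1 comparison, and the bases just before their annotated starts are shown for these 3. Each sequence is the 250 bases upstream of the start, read 5′ to 3′ on the gene's strand from RefSeq on GRCm38.p6, with motif matches in capitals. The Thbs2 window ends 27 bases away from the gene start in the deposited table.
Tnr, chr1:159523519-159523768, plus strand: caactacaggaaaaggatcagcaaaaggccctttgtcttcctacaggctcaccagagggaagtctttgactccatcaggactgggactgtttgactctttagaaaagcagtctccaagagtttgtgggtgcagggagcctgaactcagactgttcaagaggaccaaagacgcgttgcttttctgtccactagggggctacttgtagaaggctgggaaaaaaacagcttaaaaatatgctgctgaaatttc
Tnc, chr4:64047016-64047265, minus strand: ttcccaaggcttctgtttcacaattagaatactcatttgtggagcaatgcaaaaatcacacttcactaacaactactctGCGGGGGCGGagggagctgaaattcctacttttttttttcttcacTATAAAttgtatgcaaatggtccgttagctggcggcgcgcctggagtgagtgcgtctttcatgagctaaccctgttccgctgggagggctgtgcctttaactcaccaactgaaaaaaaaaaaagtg
Thbs2, chr17:14694263-14694512, minus strand: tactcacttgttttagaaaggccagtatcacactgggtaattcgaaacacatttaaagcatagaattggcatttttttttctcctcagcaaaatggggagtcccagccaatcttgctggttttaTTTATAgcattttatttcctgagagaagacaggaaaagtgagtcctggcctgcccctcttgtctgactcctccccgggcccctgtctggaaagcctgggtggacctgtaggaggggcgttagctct
In the deposited table, on GRCm38, Tnr spans chr1:159523769-159931729 on the plus strand, and Tnn lies on the same chromosome at chr1:160085029-160153580 on the minus strand. Tnc spans chr4:63959785-64047015 and Thbs2 chr17:14665500-14694235, both on the minus strand, and Tnxb spans chr17:34670535-34719627 on the plus strand. Counts fall on the exons of these genes.
The motifs searched, on both strands, were the AP-1 site TGANTCA, the EGR site GCGGGGGCG, the GC box GGGCGG, the TATA box TATAAA, the ETS site CCGGAAGT, the E-box CACGTG and the SRF CArG box. In the Tnc window an EGR site lay at -171 to -163 from the start and overlapped a GC box at -167 to -162, and a TATA box lay at -126 to -121. In the Thbs2 window the TATA box letters occurred on the opposite strand, at -126 to -121. None of these letters was found in the Tnr window. Of 32536 windows of this length, 2.6% held the EGR site, 33.0% the GC box and 12.3% the TATA box. Among the 8 members with a window, the AP-1 site was found for Tnxb, at -55 to -49, and 6.73% of all windows held it.

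Levels are given as CPM, the counts of a gene scaled to a common library total with TMM factors (edgeR's cpm), and levels of different genes are compared as CPM per kilobase of exon. In control tumors the mean levels per kilobase ran from 125 CPM for Thbs1, 47.8 for Tnc and 25.8 for Thbs2 through 8.84 for Thbs3, 3.95 for Postn, 3.86 for Tnxb and 3.67 for Thbs4 to 1.47 for Tnn, 0.0323 for Comp and 0.0167 for Tnr. Thus the vessel-restraining thrombospondin 1 and tenascin C led the set, and tenascin R was near the limit of detection, since a count of 3 in a library stood for 0.251 to 0.349 CPM. In combination treated tumors Thbs1 was still first at 31.1 CPM per kilobase, followed by Tnxb at 10.4, Thbs3 at 10.1, Tnc at 6.55 and Thbs2 at 5.07. The order between genes rests on exon lengths and on the capture probes of the exome library. With the length of the longest transcript in place of all exons, Thbs3 stood above Tnxb in the combination group.

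A call needed 2 things, an FDR of 0.05 by the quasi-likelihood test of edgeR (adjusted by Benjamini-Hochberg over all genes tested) and a log2 fold change of at least 1.5 in size, the threshold of the study. Compared to control, 3 of 9 members were called in combination treated tumors, against 3.61% of all genes. Tnr was higher, where 1.91% of all genes were called, and Tnc and Thbs2 were lower, where 1.71% were. With trametinib 1 member, Tnr, was called higher than control, against 2.4% of all genes called in both directions and 0.977% called higher. In cediranib treated tumors compared to control 0 members were called, and the quasi-likelihood test called 0% of all genes. At an unadjusted p under 0.05 in that comparison there were 2 members, Thbs3 and Thbs2, against 4.32% of all genes. DESeq2 and edgeR's likelihood ratio test also called 0 members there.

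Combination treated tumors differed from cediranib treated tumors in 1 called member, Tnr, against 2.45% of all genes. They differed from trametinib treated tumors in 0 called members by the quasi-likelihood test, against 0.675% of all genes, with 3 at an unadjusted p under 0.05, against 17.9%. DESeq2 and the likelihood ratio test each called 2 members there, Thbs2 and Thbs4, and 2.69% and 3.11% of all genes. Trametinib and cediranib treated tumors differed in 1 called member, Tnr, against 3.49% of all genes. The interaction asks whether adding cediranib had the same effect on control as on trametinib treated tumors. It called 0 members and 0% of all genes, with 1 member at an unadjusted p under 0.05, against 7.05%, and 0 members by DESeq2 or the likelihood ratio test. The comparisons share libraries, so they do not count as independent of each other.

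**Figure D1:**
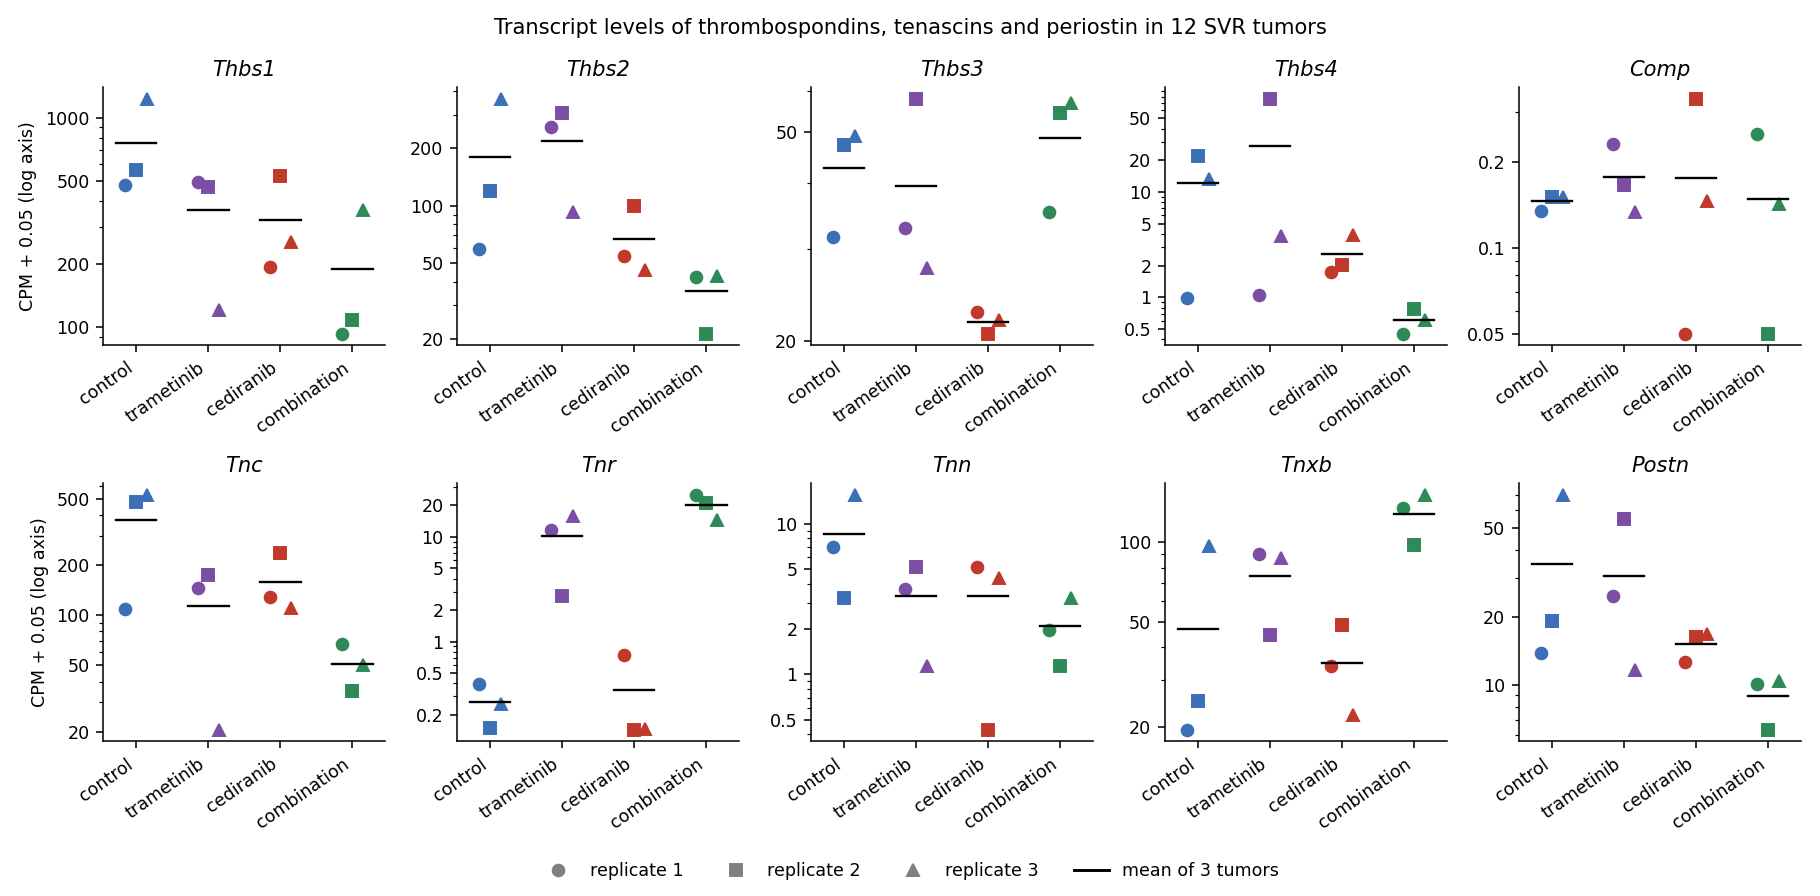
CPM plus 0.05 on a log axis for each of the 10 genes, with 1 point per tumor, marker shape for the replicate number and a bar at the mean of the 3 tumors in each group. Tnr lies between 2.68 and 24.9 CPM in the 6 tumors that received trametinib, alone or with cediranib, and at 0.699 CPM or below in the other 6.

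Tnr encodes tenascin R, a glycoprotein of perineuronal nets that binds neural cell adhesion proteins and lecticans. Its level was 0.341, 0.101 and 0.202 CPM in control tumors 1, 2 and 3, from 4, 1 and 2 counts, and 0.699, 0.0946 and 0.0957 CPM in cediranib treated tumors. In trametinib treated tumors it was 11.6, 2.68 and 15.8 CPM, and in combination treated tumors 24.9, 21 and 14.3 CPM. Every tumor that had received trametinib was above every tumor that had not. The trametinib and combination groups overlapped, because trametinib treated tumor 3 exceeded combination treated tumor 3.

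The log2 fold change of Tnr compared to control was 5.44 with trametinib (SE 0.77, edgeR FDR 0.0019) and 6.43 with the combination (SE 0.78, edgeR FDR 0.000921). Combination against cediranib gave 6.05 (SE 0.75, edgeR FDR 0.00139) and trametinib against cediranib 5.06 (SE 0.75, edgeR FDR 0.00193). Because control tumors held 7 counts of Tnr in all, the ratio of the summed counts, scaled to depth, carries a wide counting interval. It was 48.5 for trametinib over control (95% exact interval 23.3 to 122, counting error only) and 89.8 for combination over control (43.3 to 224). Combination and trametinib treated tumors differed by 0.99 on the log2 scale (SE 0.53), which was not called (edgeR FDR 0.355). With cediranib alone the log2 fold change was 0.38 (SE 1.09, edgeR FDR 0.999).

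The calls of Tnr against control and against cediranib held without each library in turn. With a score of epidermal genes as a covariate (the mean log2 CPM of 7 epidermis markers), the log2 fold change was 5.80 for combination against control and the call was lost (edgeR FDR 0.072). Trametinib against cediranib also lost its call, at 5.89 (edgeR FDR 0.0654). The score ran from 6.07 to 6.67 in combination treated tumors and from -0.39 to 4.56 in control tumors, so it did not overlap between these groups. Of the genes that overlap Tnr on the opposite strand, Gm38039 shares 443 exon bases and had 0 counts in every library. Genes of Schwann cells, a peripheral source of neural transcripts, summed to 124 to 147 CPM in control and 151 to 218 CPM in combination treated tumors, mostly from Ncam1. The sum was 130 to 346 CPM with trametinib and 89.7 to 191 CPM with cediranib. Its correlation with Tnr over the 12 tumors was 0.29, and -0.86 after the group means were removed. The defining Schwann cell gene Sox10 was at 0 in 5 of 12 libraries. Their part in the level of Tnr was not tested.

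Tnc encodes tenascin C, the tenascin of wounds and tumor stroma. Its level was 109, 478 and 526 CPM in control tumors, 145, 175 and 20.5 CPM in trametinib treated tumors, 130, 235 and 110 CPM in cediranib treated tumors and 67.2, 35.2 and 50.3 CPM in combination treated tumors. All 3 combination treated tumors were below every control tumor and every cediranib treated tumor, and trametinib treated tumor 3 was the lowest of the 12. The log2 fold change was -2.87 for combination against control (SE 0.72, edgeR FDR 0.0285), 7.3-fold lower. It was -1.71 for trametinib (SE 0.69, edgeR FDR 0.18) and -1.23 for cediranib (SE 0.68, edgeR FDR 0.999), neither of them called.

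The call of Tnc was lost on leaving out any 1 of the 3 combination treated tumors, control tumor 2 or control tumor 3, with FDRs from 0.067 to 0.097 and log2 fold changes from -3.11 to -2.53. With the epidermal score as a covariate the value was -1.32 (edgeR FDR 0.618). Tnc shares 176 exon bases with 8030451A03Rik on the opposite strand, whose level over the 12 tumors had a correlation of 0.993 with that of Tnc. Whether the counting used strand is not stated, so reads on these shared bases, of 7772 exon bases of Tnc, cannot be told apart.

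Tnxb encodes tenascin X, which holds collagen fibrils together in loose connective tissue. Its level was 19.5, 25.0 and 96.8 CPM in control tumors, 90.4, 44.7 and 87.2 CPM in trametinib treated tumors, 33.9, 48.7 and 22.1 CPM in cediranib treated tumors and 134, 97.2 and 150 CPM in combination treated tumors. The combination group lay above all other tumors, with combination treated tumor 2 just above control tumor 3. For combination against control the value was 1.44 on the log2 scale (SE 0.52, edgeR FDR 0.103) and 1.87 for combination against cediranib (SE 0.53, edgeR FDR 0.0527), and neither was called. The second was called by DESeq2 (FDR 0.0225), the likelihood ratio test, the fit with the epidermal score (2.51, edgeR FDR 0.014), scaling by library totals, the fit of only these 2 groups and the fit without a filter on low counts. Without control tumor 3 combination against control was 2.51 and called (edgeR FDR 0.00855). The same omission gave a call for trametinib against control, 1.74 in place of 0.66 on the log2 scale (edgeR FDR 0.03).

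Tnn encodes tenascin N, also called tenascin W, known from bone and tumor stroma. Its level was 6.98, 3.14 and 15.5 CPM in control tumors, 3.63, 5.12 and 1.09 CPM in trametinib treated tumors, 5.10, 0.378 and 4.31 CPM in cediranib treated tumors and 1.92, 1.09 and 3.16 CPM in combination treated tumors. The combination group overlapped control by 1 tumor on each side, at 3.16 and 3.14 CPM. Combination against control gave -2.05 on the log2 scale (SE 0.80, edgeR FDR 0.125).

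Within the tenascin family the shares of the 4 genes in their summed CPM per kilobase differed between groups. Tnc made up 83.3% to 95.9% in control tumors and 81.8% to 88.2% in cediranib treated tumors. In combination treated tumors Tnc made up 31.7% to 39.4% and Tnxb 50.2% to 60.2%. Tnr, which had almost no reads in control tumors, reached 5.44% to 11.4% in the combination group. Trametinib treated tumors were spread, with 82.6% Tnc in tumor 2 and 23.6% in tumor 3. These shares are a description without a test, and a rise of 1 share lowers the others by construction.

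**Figure D2:**
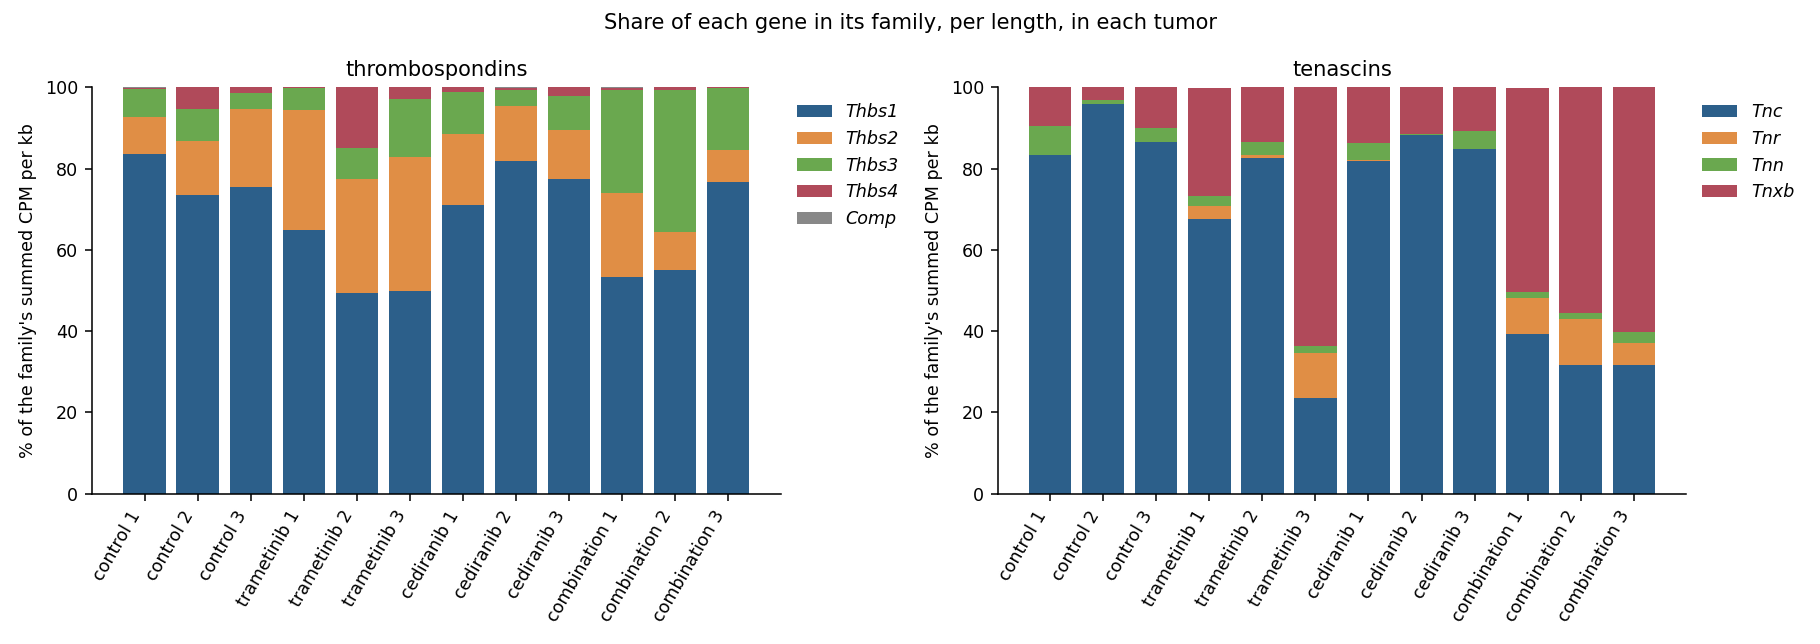
Stacked bars of the share of each gene in the summed CPM per kilobase of its family, in percent, for each of the 12 tumors, with thrombospondins on the left and tenascins on the right. Tnc makes up at least 83.3% of the tenascin sum in control tumors and at most 39.4% in combination treated tumors, where Tnxb makes up at least 50.2%.

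Thbs1 encodes thrombospondin 1, the inhibitor of angiogenesis that activates TGF-beta. Its level was 478, 563 and 1231 CPM in control tumors, 497, 467 and 121 CPM in trametinib treated tumors, 193, 527 and 256 CPM in cediranib treated tumors and 93.3, 108 and 365 CPM in combination treated tumors. Every combination treated tumor was below every control tumor, while neither single drug separated from control. The log2 fold change for combination against control was -2.0 (SE 0.65), above the FDR threshold (edgeR FDR 0.0714). Without combination treated tumor 3 it was -2.91 and called (edgeR FDR 0.0322). Without control tumor 3 it was -1.47 (edgeR FDR 0.242), and with the epidermal score as a covariate -0.99 (edgeR FDR 0.701). Thbs1 shares 208 exon bases with Gm29233 on the opposite strand.

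Thbs2 encodes thrombospondin 2, a related angiogenesis inhibitor made by fibroblasts. Its level was 59.1, 120 and 363 CPM in control tumors, 260, 305 and 93.0 CPM in trametinib treated tumors, 54.7, 99.2 and 45.8 CPM in cediranib treated tumors and 42.1, 21.3 and 43.0 CPM in combination treated tumors. The combination group was below all 9 other tumors. The log2 fold change was -2.35 for combination against control (SE 0.63, edgeR FDR 0.0365), 5.09-fold lower. It was -2.63 for combination against trametinib (SE 0.63), which was not called (edgeR FDR 0.0704).

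The call of Thbs2 against control was lost without any 1 of the 3 combination treated tumors, control tumor 2 or control tumor 3, with FDRs from 0.0552 to 0.165. Control tumor 3, the highest of the 12, moved the value most, to -1.34 when left out. With the epidermal score as a covariate it was -0.77 (edgeR FDR 0.768), and with only the control and combination libraries in the fit -2.36 (edgeR FDR 0.0514). With the replicate number as a block it was -2.25 (edgeR FDR 0.0707).

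Thbs3 encodes thrombospondin 3, which forms pentamers and lacks the type 1 repeats of thrombospondins 1 and 2. It varied least, at 31.5, 47.2 and 49.2 CPM in control tumors, 32.9, 57.8 and 27.5 CPM in trametinib treated tumors, 22.7, 20.6 and 21.9 CPM in cediranib treated tumors and 35.2, 54.3 and 56.9 CPM in combination treated tumors. The cediranib group was below all other tumors and was tight, with a mean of 21.7 ± 1.04 CPM (SD, n = 3). For cediranib against control the log2 fold change was -0.97 (SE 0.28), with an edgeR FDR of 0.999. For combination against cediranib it was 1.17 (SE 0.28, edgeR FDR 0.0277), past the FDR but under the minimum fold change, where 7.68% of all genes passed the FDR alone. Leaving out combination treated tumor 2 or 3 or any 1 of the cediranib treated tumors put its FDR at 0.0704 to 0.0863, and the epidermal score at 0.0508. The interaction for Thbs3 was 1.28 (SE 0.39, edgeR FDR 0.634). Thbs3 shares 318 exon bases with Mtx1 on the opposite strand.

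Thbs4 encodes thrombospondin 4, a pentameric protein of tendon and muscle. Its level was 0.937, 22.1 and 13.1 CPM in control tumors, 0.999, 76.2 and 3.77 CPM in trametinib treated tumors, 1.70, 1.99 and 3.83 CPM in cediranib treated tumors and 0.404, 0.726 and 0.557 CPM in combination treated tumors. The combination group was the lowest and lay below every other tumor, and control and trametinib treated tumors were spread over more than an order of magnitude. The log2 fold change for combination against control was -4.38 (SE 1.54, edgeR FDR 0.0914) and was not called. DESeq2 (-4.41, FDR 0.0139) and the likelihood ratio test (-4.39, FDR 0.0116) called it. For trametinib against control it was 1.16 (SE 1.18, edgeR FDR 0.651), and -2.32 without trametinib treated tumor 2.

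Control tumor 2 and trametinib treated tumor 2, with the highest Thbs4 of their groups, also had the highest summed skeletal muscle markers, at 16400 and 23100 CPM. The other 10 tumors had 5.15 to 1890 CPM. Control tumor 3 had the lowest sum, 5.15 CPM, with Thbs4 at 13.1 CPM. The correlation of Thbs4 with these markers over the 12 tumors was 0.51, and 0.42 after the group means were removed. With control tumor 2 and trametinib treated tumor 2 left out, combination against control called 1 member, Tnr, against 1.97% of all genes. This alternative was chosen after seeing the data. Tnc was then at -2.64 (edgeR FDR 0.0805) and Thbs2 at -2.57 (edgeR FDR 0.0605). The part of muscle tissue in the level of Thbs4 was not tested further.

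Comp encodes cartilage oligomeric matrix protein, the fifth thrombospondin. It had 0 to 3 counts in every library and could not be compared at this depth. The cartilage genes Acan, Col9a1, Matn1 and Cnmd were at 0 in 8, 11, 10 and 7 of 12 libraries. Col2a1, the other cartilage gene listed, was at 0 in 1 library and reached 25 counts.

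Within the thrombospondins Thbs1 made up 73.4% to 83.7% of the summed CPM per kilobase in control tumors and 53.2% to 76.8% in combination treated tumors. Thbs3 made up 3.8% to 7.75% in control tumors and 15.1% to 34.8% in combination treated tumors, while its own log2 fold change was 0.20 (SE 0.27, edgeR FDR 0.693). Thbs2 reached its highest shares, 28% to 33.1%, in trametinib treated tumors.

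Postn encodes periostin, a collagen-binding protein of activated fibroblasts. Its level was 13.8, 19.3 and 70.1 CPM in control tumors, 25.0, 54.7 and 11.6 CPM in trametinib treated tumors, 12.6, 16.4 and 16.7 CPM in cediranib treated tumors and 10.0, 6.26 and 10.4 CPM in combination treated tumors. The combination group was below all other tumors. Combination against control gave a log2 fold change of -1.95 (SE 0.62, edgeR FDR 0.0669), and it was not called. Left out 1 at a time, control tumor 1 gave -2.33 and a call (edgeR FDR 0.0334), and control tumor 3 gave -0.90 (edgeR FDR 0.34). DESeq2 (FDR 0.0368) and the likelihood ratio test (FDR 0.0177) called it.

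**Figure D3:**
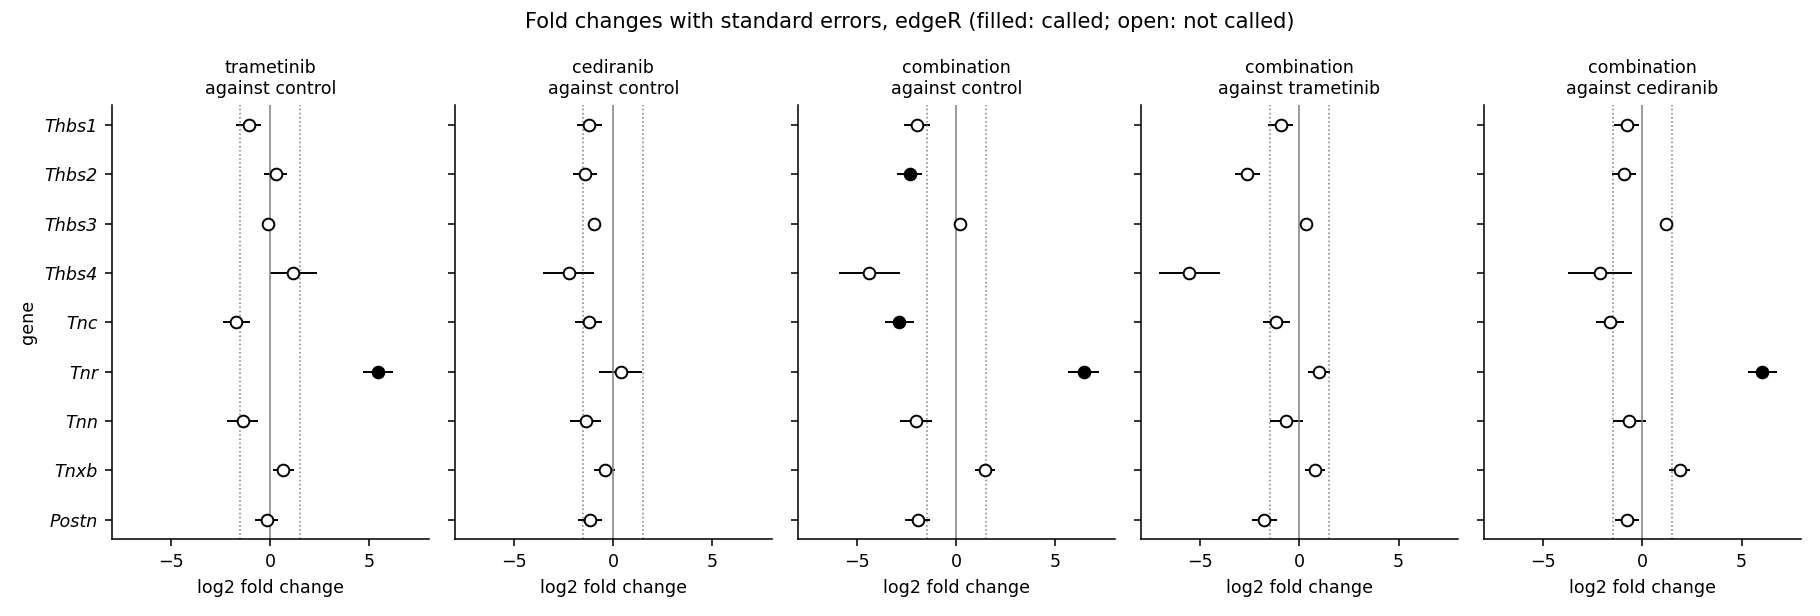
Log2 fold changes (points) with standard errors (bars) of the 9 tested genes in 5 comparisons, with dotted lines at the minimum size of 1.5 and filled points for called genes. Tnr is filled in the 3 comparisons of a group with trametinib against one without, and Tnc and Thbs2 in combination against control.

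Across the 9 tested members the median log2 fold change was -2.0 for combination against control, where the median of all genes was 0, and 6 members had lower and 3 higher values. Without control tumor 3 the median was -1.31, and with the epidermal score as a covariate -0.99. Groups did not overlap for 7 of 9 members, against 31.3% of all genes, and 8 of 9 had an unadjusted p under 0.05, against 27.2%. For cediranib against control the median was -1.22, beside 0 for all genes, with 8 members lower and groups apart for 1, against 7.76% of all genes. That median was -0.64 without control tumor 3, where Tnxb turned to 0.65, and -0.62 with the epidermal score as a covariate. For trametinib against control the median was -0.12, beside 0.01 for all genes, with groups apart for 1 member, against 25.8%. It turned to 0.87 without control tumor 3 and 0.20 without trametinib treated tumor 3, and was -0.91 without trametinib treated tumor 2 and -0.31 without control tumor 1. For combination against trametinib the median was -0.94, beside -0.01, with groups apart for 4 members, against 24.2%, and it was -0.59 without combination treated tumor 1 and -0.14 with the epidermal score.

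The spread within groups was shared by many members. Control tumor 3 had the highest level of its group for 7 of the 9 tested genes and control tumor 1 the lowest for 7. Trametinib treated tumor 2 was highest for 6 and trametinib treated tumor 3 lowest for 6. The median deviation from the group mean was 0.94 on the log2 scale for control tumor 3 and -1.06 for trametinib treated tumor 3.

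Over the 12 tumors, which share treatments and libraries, Thbs2 and Postn were the members most alike, with a Pearson correlation of log2 CPM of 0.92, and 0.90 after the group means were removed. Thbs1 and Tnc had 0.82 and within groups 0.69. Tnr and Tnxb had 0.78 over all tumors but 0.24 within groups, and Tnc and Tnr had -0.76 and within groups -0.55. These are descriptions over 12 tumors in 4 groups.

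**Figure D4:**
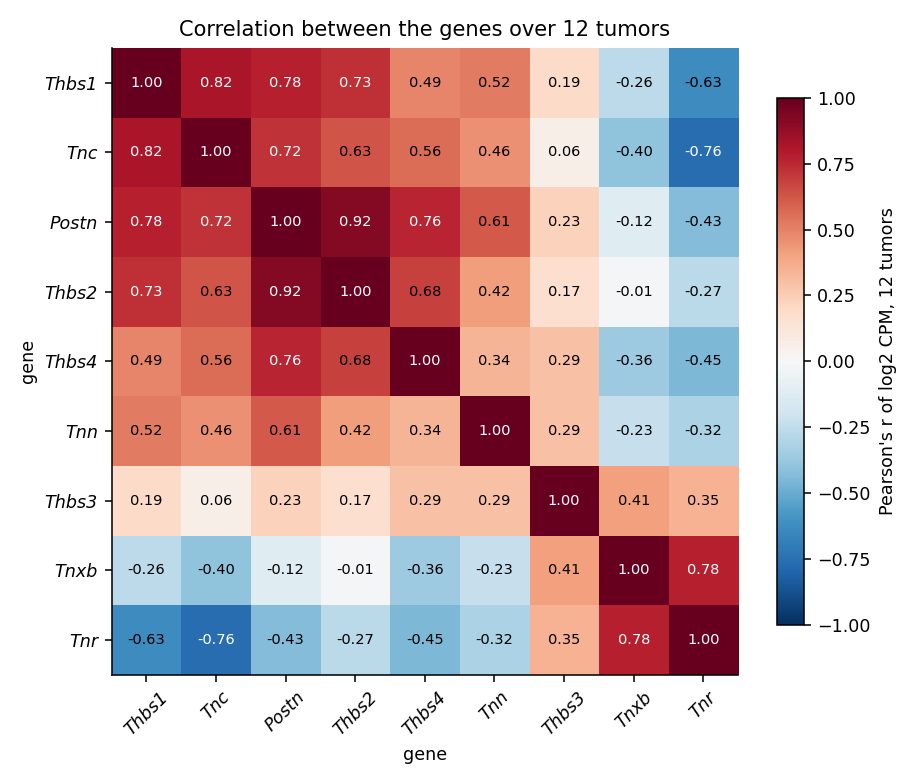
Pearson correlations of log2 CPM between the 9 tested genes over the 12 tumors, with red for positive and blue for negative values. Thbs1, Tnc, Postn and Thbs2 form a block of values from 0.63 to 0.92, and Tnr is at -0.76 with Tnc and 0.78 with Tnxb.

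Among all genes tested, the genes whose levels were most like those of Thbs2 were Col1a2, a chain of type I collagen, with a correlation of 0.971, Gm17529 with 0.958 and Col5a2 with 0.948. Postn was most like Gm17529 with 0.937, Col5a2 with 0.933 and Thbs2 with 0.921. Thbs1 was most like Gm29233 with 0.995, its partner on the opposite strand, then Ctgf, a matricellular growth factor gene, with 0.912 and Fem1b with 0.901. For Tnc the nearest after 8030451A03Rik were Trabd2b with 0.949 and Rbpms2 with 0.921.

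Tnr was most like Trim2, a ubiquitin ligase gene, with 0.964, AI314180 with 0.953 and Stk38l with 0.944. Tnxb was most like Tacc1 with 0.911, Pard6a with 0.91 and E130114P18Rik with 0.904. The nearest for Thbs4 were Cdc16 with 0.925, Kcnma1 with 0.922 and Tpm1 with 0.898. For Thbs3 they were Nisch with 0.875, Gria3 with 0.873 and Chd3 with 0.854, and for Tnn they were Gm47639 with 0.868, Gm23650 with 0.842 and Osbpl7 with 0.834.

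Marker genes of stromal cells varied with some members. The sum of the 9 fibroblast markers was 2030 to 21000 CPM in control tumors and 8100 to 36900 CPM with trametinib. It was 1580 to 6720 CPM with cediranib and 2640 to 5330 CPM with both drugs. Col1a1 alone made up 74.0% to 81.5% of the summed group means. The means of Col1a1, Col1a2, Fap (10.7 and 4.12 CPM in control and combination treated tumors), Lum (0.928 and 0.539) and Thy1 (0.871 and 0.379) were lower with both drugs. Those of Col3a1 (549 and 755 CPM in control and combination treated tumors), Pdgfra (14.7 and 24.5), Dcn (3.04 and 9.68) and Dpt (2.87 and 6.64) were higher. The correlation of log2 values over 12 tumors was 0.88 between Thbs2 and these markers and 0.95 within groups, and for Postn it was 0.76 and 0.83. For smooth muscle and pericyte markers it was 0.89 with Thbs2, 0.88 with Postn and 0.84 with Thbs4. Those 7 markers summed to 69.3 to 460 CPM in control and 31 to 59.3 CPM in combination treated tumors, and 3 of the 6 tested were called lower there, while 0 of 8 tested fibroblast markers were called. In whole tumor RNA fewer cells of a type and less RNA per cell cannot be told apart.

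**Figure D5:**
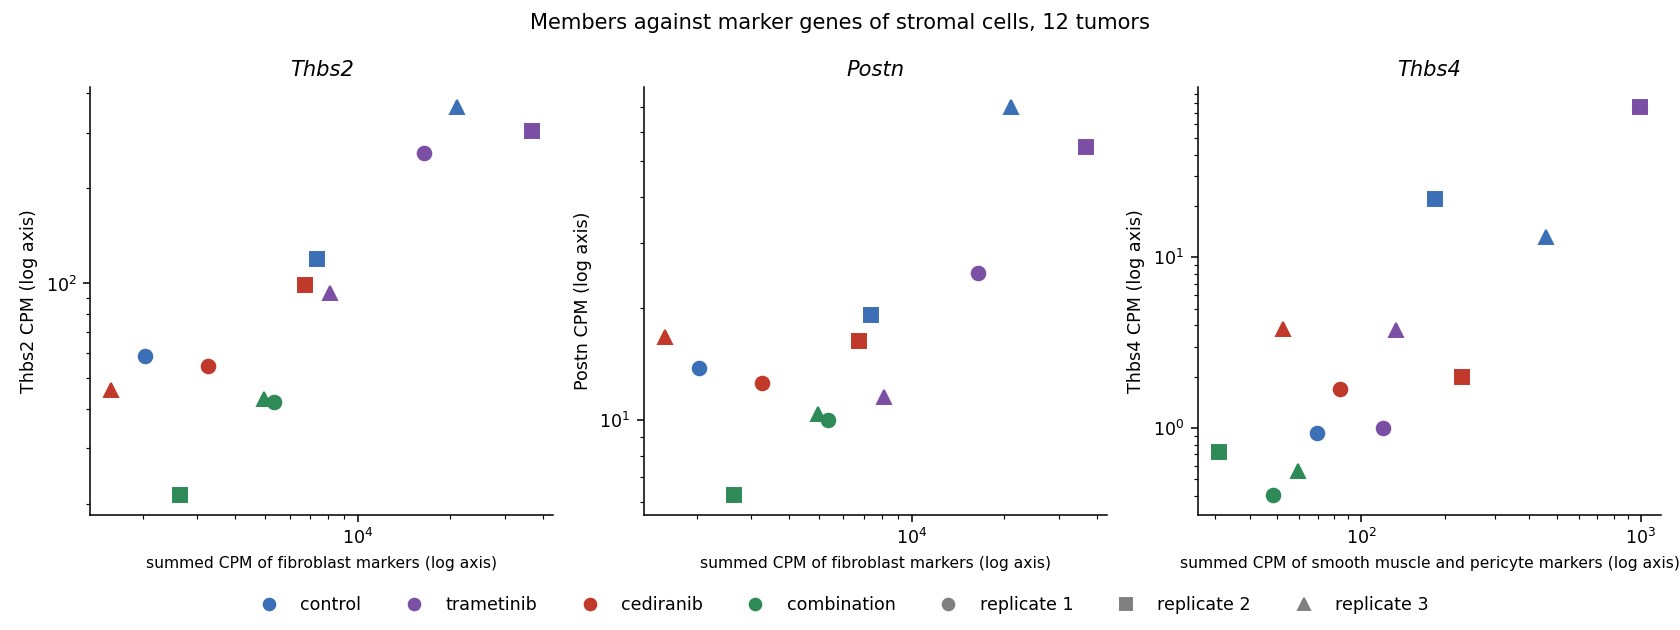
Level of Thbs2, Postn and Thbs4 against the summed CPM of fibroblast markers or of smooth muscle and pericyte markers, both on log axes, with 1 point per tumor, color for the group and shape for the replicate number. Combination treated tumors (green) lie below other tumors of like fibroblast marker level for Thbs2 and Postn.

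Markers of endothelium, the lineage of angiosarcoma, were low but present. Their sum was 184 to 396 CPM in control tumors, mostly from Tie1 and Cdh5, while Emcn was at 0 in 5 libraries. It was 42.4 to 103 CPM with trametinib, 106 to 300 CPM with cediranib and 29 to 70.4 CPM with both drugs, and 4 of 6 tested markers were called lower with the combination than in control tumors. The correlation with these markers was 0.85 for Tnc (0.72 within groups), 0.72 for Thbs1 (0.63) and -0.86 for Tnr (-0.21). Epidermal markers summed to 15.1 to 604 CPM in control tumors, 0.67 to 6.08 CPM with trametinib, 38.4 to 2790 CPM with cediranib and 2860 to 4340 CPM with both drugs. The part of these tissues in the levels of the members was not tested beyond the covariate given above.

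The counts that follow for lists of related genes stand beside shares of all genes called higher and lower than control, which were 0.977% and 1.43% with trametinib and 1.91% and 1.71% with the combination. Of 11 genes listed as thrombospondin receptors 10 were tested, and 2 were called, both higher in combination treated tumors compared to control. Lrp1, an endocytic receptor that clears thrombospondins, had a log2 fold change of 1.58 (SE 0.23, edgeR FDR 0.00307). Cacna2d1, a calcium channel subunit that binds thrombospondins, had 1.59 (SE 0.25, edgeR FDR 0.00412). The list's median was -0.15, beside 0 for all genes. Of 14 tenascin and periostin receptors, mostly integrins, 11 were tested and 0 were called in any of the 6 comparisons.

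Of 14 proteases that cut matrix proteins 11 were tested. Htra1, a secreted serine protease, was higher compared to control with trametinib, by 1.90 on the log2 scale (SE 0.20, edgeR FDR 0.00027), and with the combination, by 1.76 (SE 0.20, edgeR FDR 0.000635). Mmp9, a gelatinase, was lower with trametinib, at -2.66 (SE 0.72, edgeR FDR 0.0497). Adamts4, an aggrecanase, was lower with the combination, at -1.51 (SE 0.31, edgeR FDR 0.012).

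Among 17 other matricellular genes 14 were tested, and in combination treated tumors compared to control 1 was higher and 4 were lower, with a list median of -0.66. Fbln1, encoding fibulin 1, was at 1.59 (SE 0.41, edgeR FDR 0.0304). Sparcl1, a relative of SPARC, was at -2.35 (SE 0.56, edgeR FDR 0.0237), and Igfbp7 was at -1.91 (SE 0.46, edgeR FDR 0.0254). In trametinib treated tumors 2 were higher than control, Fbln1 at 1.61 (SE 0.41, edgeR FDR 0.0375) and Ogn, the small proteoglycan osteoglycin, at 2.80 (SE 0.44, edgeR FDR 0.00301). Ogn was lower with the combination than with trametinib alone, at -2.94 (edgeR FDR 0.0196).

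Of 23 collagens and other matrix partners 17 were tested, and 2 were lower in combination treated tumors compared to control. These were Col5a2 at -2.82 (SE 0.73, edgeR FDR 0.0318) and Lox, the collagen crosslinking enzyme, at -3.50 (SE 0.94, edgeR FDR 0.0376). With trametinib 1 was higher, Matn2, encoding matrilin 2, at 1.93 (edgeR FDR 0.014). Of 12 TGF-beta ligands, receptors and direct targets, all tested, 2 were lower with the combination, among them Pmepa1, an inhibitor of the pathway, at -2.73 (SE 0.63, edgeR FDR 0.0208). The list's median was -0.50.

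Of 21 other genes with thrombospondin type 1 repeats 10 were tested. Rspo3, a WNT enhancer, was higher with the combination, at 4.62 compared to control (SE 0.75, edgeR FDR 0.00473) and 3.77 compared to trametinib (edgeR FDR 0.0369). Thsd7a was at 1.86 (edgeR FDR 0.018) and Spon1, encoding spondin 1, at -1.98 (edgeR FDR 0.0304) compared to control. Spon2 was higher with trametinib, at 5.43 (SE 1.11, edgeR FDR 0.0182). Its mean was 0.0284 CPM in control tumors, below the level of 3 counts in a library, and 1.85 CPM with trametinib. Rspo3 had 0.473 ± 0.652 CPM in control and 11.5 ± 4.91 CPM in combination treated tumors (SD, n = 3). The sizes of these 2 changes rest on few control counts.

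ERK output genes, transcripts that follow the kinase below MEK, give the direction of the drug effect beside the members. Of 12 tested, 7 were lower with trametinib, where 1.43% of all genes were, and 7 with the combination, where 1.71% were. With cediranib the quasi-likelihood test called 0 of the 12897 genes tested, so the count of 0 there says nothing about this list. Dusp6, an ERK phosphatase, had a level of 44.4 ± 4.7 CPM in control (SD, n = 3) and 42.7 ± 1.17 CPM in cediranib treated tumors, against 3.37 ± 1.3 CPM with trametinib and 11.8 ± 1.91 CPM with the combination. The mean of Tnr was 10.0 ± 6.71 CPM (SD, n = 3) with trametinib alone and 20.1 ± 5.38 CPM (SD, n = 3) with the combination. These 2 groups overlapped for Tnr, and their difference was not called (edgeR FDR 0.355). A link between ERK output and the level of Tnr was not tested.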

How the data were processed

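RNA was captured with exome probes from 12 SVR tumors, 3 per group as titled. The study chose this method because of RNA degradation in the tumors, and the RNA quality of single tumors is not given. The authors aligned reads to GRCm38 with STAR 2.7.1a in 2 passes and counted them with featureCounts 1.6.0, after bcl2fastq 1.8.4, per the submitters' processing notes and methods. The deposited values were raw counts per gene, with gene lengths that equalled merged exon length for 97.3% of genes found in GENCODE M21 and for all members. The sources used here give neither strand setting nor annotation release. Libraries held 9478865 to 11666094 counts.

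Counts were filtered (filterByExpr, minimum count 10, total 15), scaled with TMM and fitted in 1 quasi-likelihood model over all 12 libraries with edgeR 4.0.16 in R 4.3.3. The biological coefficient of variation was 27.2%. The authors' methods give the threshold (FDR 0.05, log2 fold change 1.5) but not the test. Log2 CPM used a prior count of 2, and correlations used these values. Alternatives were edgeR's likelihood ratio test, DESeq2 1.42.0, other scalings and filters, a minimum of 1 CPM in 3 libraries, a replicate block, an epidermal covariate and single libraries left out. Scripts were tested on simulated data.

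The members and lists were chosen with earlier results of these data known. Besides all members, genes named were the 3 most like each tested member by Pearson correlation over 12 tumors, and at most 5 from each pathway list, those called most often. Marker lists covered fibroblast, tendon, cartilage, skeletal muscle, smooth muscle and pericyte, endothelium, platelet and megakaryocyte, macrophage, Schwann cell, epidermis, erythroid and adipocyte genes. The titles number the replicates, and the sample descriptions carry other numbers whose meaning is not stated. The p-values measure the spread between these tumors. Intervals and the count floor cover counting error alone, because PCR copies were not marked by molecular identifiers. Single results for some listed genes are not reported here.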

Additional observations from a re-analysis of the deposited data

How the results depend on the processing

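Counts of called members moved by over 1.5 times as follows. Without a filter on low counts they were 2 for trametinib against control, 1 for cediranib against control, 7 for combination against control, 3 for combination against trametinib, 4 for the combination against cediranib, 3 for trametinib against cediranib, and 1 for the interaction. This setting tested 29102 genes, with all 10 members among them. In the same order all genes called were 687 (2.36%), 324 (1.11%), 1129 (3.88%), 773 (2.66%), 637 (2.19%), 973 (3.34%) and 261 (0.897%). The likelihood ratio test gave 6 members for the combination against control, 2 against trametinib, 2 against cediranib, and 3 for trametinib against cediranib. DESeq2 gave 5, 2 and 2 for the first 3 of these. In these comparisons the quasi-likelihood test called 466, 87, 316 and 450 of 12897 genes. The likelihood ratio test called 688 (5.33%), 401 (3.11%), 442 (3.43%) and 721 (5.59%), and DESeq2 611 (4.74%), 347 (2.69%) and 397 (3.08%). Cediranib against control gave 14 and 10 genes, and the interaction 28 by each. With only the 2 groups in the fit, combination against cediranib gave 4 members (278 genes, 2.28%) and combination against trametinib 1 (274 genes, 2.27%). Scaling by library totals gave 2 members for combination against cediranib, against 2.52% of all genes. No minimum fold change also gave 2, against 7.68%. Scaling by library totals moved the median of all genes from 0 to 0.13 for combination against control, from -0.01 to 0.12 against trametinib, from 0 to 0.12 against cediranib and from 0 to 0.11 for the interaction, and the share of called genes that were higher went from 52.8% to 62.6% and, against cediranib, from 52.5% to 62.5%. Without a minimum fold change all genes called were 789 with trametinib and 1287 with the combination against control, and 991 and 1116 for the combination and for trametinib against cediranib.

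With the epidermal score as covariate 0 members were called for combination against control (108 genes, 0.837%) and 2 against cediranib (255 genes, 1.98%). It gave 0 members for trametinib against cediranib (172 genes, 1.33%) and 0 genes for combination against trametinib. It reversed combination against trametinib for Thbs1 (0.52), Tnc (0.86) and Tnr (-0.14), trametinib against control for Thbs2 (-0.22) and cediranib against control for Tnxb (0.31). None of these 5 was called. The cause was not tested. Without both muscle-rich tumors 1 member was called for combination against control (261 genes), 181 genes for trametinib against control, 7 for combination against trametinib and 278 for trametinib against cediranib. Trametinib against control was then -0.26 for Thbs2 and -1.54 for Thbs4.

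With single libraries left out, called members ranged from 1 to 4 for combination against control and from 1 to 2 for trametinib against control, and stayed at 0 or 1 as before in the other comparisons. All genes called ranged from 237 to 575 for combination against control, 0 to 21 against trametinib and 188 to 275 against cediranib, from 254 to 562 for trametinib against cediranib, from 0 to 7 for cediranib against control and from 0 to 1 for the interaction. Log2 fold changes for trametinib against control ranged from -0.91 to 0.87 for Postn, -0.15 to 1.29 for Thbs2, -0.50 to 0.07 for Thbs3 and -2.32 to 1.94 for Thbs4. For cediranib against control they ranged from -1.12 to 0.88 for Tnr and -0.82 to 0.65 for Tnxb.

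Replicate numbers did not pair the tumors: over 18 pairs with the same number correlations of deviations ran from -0.22 to 0.36, with 3 over 0.1. With a replicate block Thbs2 was at -2.25 for combination against control and lost its call (edgeR FDR 0.0707), the other members kept theirs, and all genes called for combination against trametinib were 57. Depth limited Comp and the control level of Tnr.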

Other observations

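Of the marker lists not yet described, tendon markers summed to 64 to 246 CPM in trametinib treated tumors and to 8.89 to 32.6 CPM in all other tumors, mostly from Scx, a tendon transcription factor, and Fmod, encoding fibromodulin. The groups did not overlap. Of the 2 tendon markers tested, 1 was called higher with trametinib compared to control, and 1 was called lower with the combination compared to trametinib (edgeR, Benjamini-Hochberg, FDR 0.05 and log2 fold change 1.5). Tnmd and Mkx, further tendon genes, were at 0 in 6 and 10 of 12 libraries. Over the 12 tumors Thbs4, a thrombospondin of tendon and muscle, had a correlation of 0.55 with the tendon markers and of 0.88 within groups.

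Macrophage markers summed to 382 to 676 CPM in control and 172 to 306 CPM in combination treated tumors, and 1 of 5 tested was called lower. Erythroid markers summed to 59.9 to 1300 CPM in control and 10.4 to 12.5 CPM in combination treated tumors, with 2 of 3 called lower. Platelet markers, of a cell type that stores thrombospondin 1 protein, summed to 2.68 to 12.9 CPM over all tumors, with Ppbp at 0 in 11 libraries. Adipocyte markers summed to 0.507 to 8.89 CPM and cartilage markers to 0.0999 to 2.64 CPM.

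In trametinib compared to cediranib treated tumors, 4 of 17 tested matrix partners were called higher. Of all genes 3.49% were called in this comparison, and 43.6% of those were higher. Among the 4 were the collagen VI genes Col6a1 at 1.67 (SE 0.31, edgeR FDR 0.00671) and Col6a2 at 1.75 (SE 0.38, edgeR FDR 0.0164). The list median was 1.75, beside 0 for all genes. Mmp2, a gelatinase, was at 2.48 (edgeR FDR 0.0231) and Mmp9 at -3.52 (edgeR FDR 0.0128). Thbs2 had 1.72 (SE 0.61, edgeR FDR 0.104) in this comparison.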
